A study of Mus musculus with 12 samples.

Results

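This account covers 29 of 750 genes measured in a mouse model of ovarian cancer. They are every chemokine or chemokine receptor of the table whose symbol starts with Ccl, Ccr, Cxcl, Cxcr, Cx3c, Xcl or Xcr, except 24 genes set aside by name. Those 24 are genes of the lymphoid, neutrophil, CXCR3, CCR4 and XCR1 systems and the receptors Ccr2, Ccr3, Ccr8 and Cx3cr1, while ligands of these receptors remain. The 29 are 22 ligands and 7 receptors, chosen by name and not by value, though with earlier results of these data known. Cells of the peritoneal ascites, the fluid that collects around such tumours, were profiled on a NanoString immune panel, in which colour-coded probes count RNA molecules. The KTFAKKD group (n = 3) came from mice injected with tumour cells labelled KTFAKKD, where FAK is focal adhesion kinase, a tyrosine kinase of cell adhesion sites, and KD is not expanded by the labels. The FAKi group (n = 3) came from mice with KTFAKWT tumour cells gavaged with the FAK inhibitor VS4716 at 100 mg per kg, 2 times a day, the VEH group (n = 3) from mice gavaged with vehicle, and the KTFAKWT group (n = 3) from untreated mice with KTFAKWT cells. All 12 samples share injection into the peritoneal cavity, recovery on day 21 and RNA from a fixed number of ascites cells, and the design text names the tumour cells as KMF cells. The VEH samples carry KTFAKWT in their titles but KTFAKKD in their genotype field. The titles were followed, and inhibitor samples were also set against untreated KTFAKWT samples. The labels give no strain, age or sex. Whether each sample is its own mouse is likewise not stated, and the p-values therefore describe only sample-to-sample spread, which may be technical.

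Chemokines are small secreted proteins that steer migrating leukocytes, and their receptors are G-protein-coupled proteins on the surface of the cells that follow them. CC and CXC ligands are named for the spacing of their first cysteines. Several inflammatory CC ligands share receptors such as CCR1 and CCR2, whereas pairs such as CXCL12 with CXCR4, CXCL16 with CXCR6, CCL25 with CCR9 and CCL20 with CCR6 are close to exclusive. In ascites, such genes can be expressed by macrophages, lymphocytes, mesothelial cells and tumour cells alike. Because each sample is a mixture, fewer cells of a type and less RNA per cell cannot be told apart.

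The deposited values are on a log2 scale and resolve into whole counts multiplied by 1 factor per sample. Recovered totals lay between 588778 and 760152 counts. The factor lay between 1.29 and 1.66 in KTFAKKD, between 1.13 and 1.25 in FAKi, between 0.719 and 0.896 in VEH and between 0.659 and 0.825 in KTFAKWT samples. The median log2 fold change over all genes was therefore 0.95 in KTFAKKD minus KTFAKWT, 0.54 in FAKi minus VEH and 0.06 in VEH minus KTFAKWT. Each change is given as deposited and also relative to the panel, that is after every sample was shifted to the same median gene, where the panel medians were -0.10, -0.20 and -0.06. A gene passed when limma's adjusted p over all 750 genes was under 0.05, and "rose" or "fell" without a scale means that it passed in that direction on both. Of the 29 members, 23 had a mean recovered count of at least 20, and the other 6 are described by their counts.

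Cell-type markers passed as well, and their counts stand beside the shares over all genes. In KTFAKKD samples 65.1% of all genes were higher and 9.47% lower as deposited, and 23.6% and 34.5% relative to the panel. With the inhibitor these shares were 49.2% and 10.5% as deposited, and 17.7% and 28.8% relative to the panel. Of 12 macrophage and monocyte markers, 11 were higher in KTFAKKD than in KTFAKWT samples (on the relative scale 6 higher, 1 lower), and 8 were higher with the inhibitor than with vehicle (on the relative scale 4 higher, 4 lower). The summed level of this list (log2 of the summed values) was 17.71 to 17.84 in KTFAKKD against 15.64 to 16.04 in KTFAKWT samples as deposited. It was 16.91 to 17.14 in FAKi against 16.05 to 16.40 in VEH samples. Relative to the panel the ranges were 17.19 to 17.31 against 16.24 to 16.47, and 16.67 to 16.79 against 16.42 to 16.70, which overlapped. Such a sum leans on the gene with the highest counts, here Lyz2 (mean recovered count 78581.08), and Msln (4625.33) among the epithelial and tumour markers. All 8 B-cell markers were higher in KTFAKKD samples on both scales, with a summed level of 11.47 to 12.58 against 9.28 to 9.96 in KTFAKWT samples, and the sums were 11.89 to 12.34 in FAKi against 9.48 to 10.23 in VEH samples. All 8 T-cell markers were higher in both comparisons as deposited, and 6 and 3 of them relative to the panel. Of 4 NK-cell markers 3 were higher in KTFAKKD as deposited, 1 lower relative to the panel, and none passed with the inhibitor. Neutrophil markers (6) gave 3 higher in KTFAKKD as deposited, 1 relative to the panel, and 1 on each scale with the inhibitor. Of 8 stromal and endothelial markers, 4 were higher and 1 lower in KTFAKKD on each scale. With the inhibitor these were 5 and 0, and 3 and 1 relative to the panel. The 2 dendritic-cell markers passed only as deposited. All 5 epithelial and tumour markers were lower in KTFAKKD samples on both scales, with a summed level of 11.11 to 11.26 against 12.36 to 12.38 in KTFAKWT samples. With the inhibitor 3 of these 5 were lower on both scales and 2 were higher as deposited, while their sum was 12.85 to 12.98 in FAKi against 12.07 to 12.41 in VEH samples as deposited, and 12.51 to 12.62 against 12.45 to 12.81 relative to the panel. No marker was at a count of 0 in all samples, and the part of these cell types in the results that follow was not tested.

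In ascites with KTFAKKD tumour cells, 9 of the 29 genes rose on both scales, against 23.6% of all genes: the receptors Ccr9, Ccr1, Cxcr4, Cxcr6 and Ccrl2 and the ligands Ccl28, Ccl4, Ccl25 and Ccl7. The only member that fell on both scales was Cxcl16, against 9.47% of all genes. As deposited, 18 members were higher and 1 lower, where 65.1% and 9.47% of all genes were. On the relative scale 9 were higher and 10 lower, where 23.6% and 34.5% were. The median member had a log2 fold change of 1.14, against 0.95 for all genes, and 0.08 relative to the panel, against -0.10. Ccl8 and Cxcl12 passed in opposite directions on the 2 scales, as 10.8% of all genes did. The members' share of calls thus lay close to the panel's or below it as deposited, and at 9 of 29 above it among the higher calls relative to the panel. No test of that share was made.

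With the FAK inhibitor, 5 members rose on both scales compared with vehicle, where 17.7% of all genes did: Cxcr4, Ccl3, Ccr1, Ccl28 and Cxcl12. Ccl12, Ccr6 and Ccl5 fell on both scales, where 10.5% of all genes did. As deposited 13 members were higher and 3 lower, against 49.2% and 10.5% of all genes. On the relative scale 5 were higher and 6 lower, against 17.7% and 28.8%. The median member had a log2 fold change of 0.76, against 0.54 for all genes, and 0.02 relative to the panel, against -0.20. Ccr1, Ccl28 and Cxcr4 rose in both comparisons, which share no samples.

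**Figure D1:**
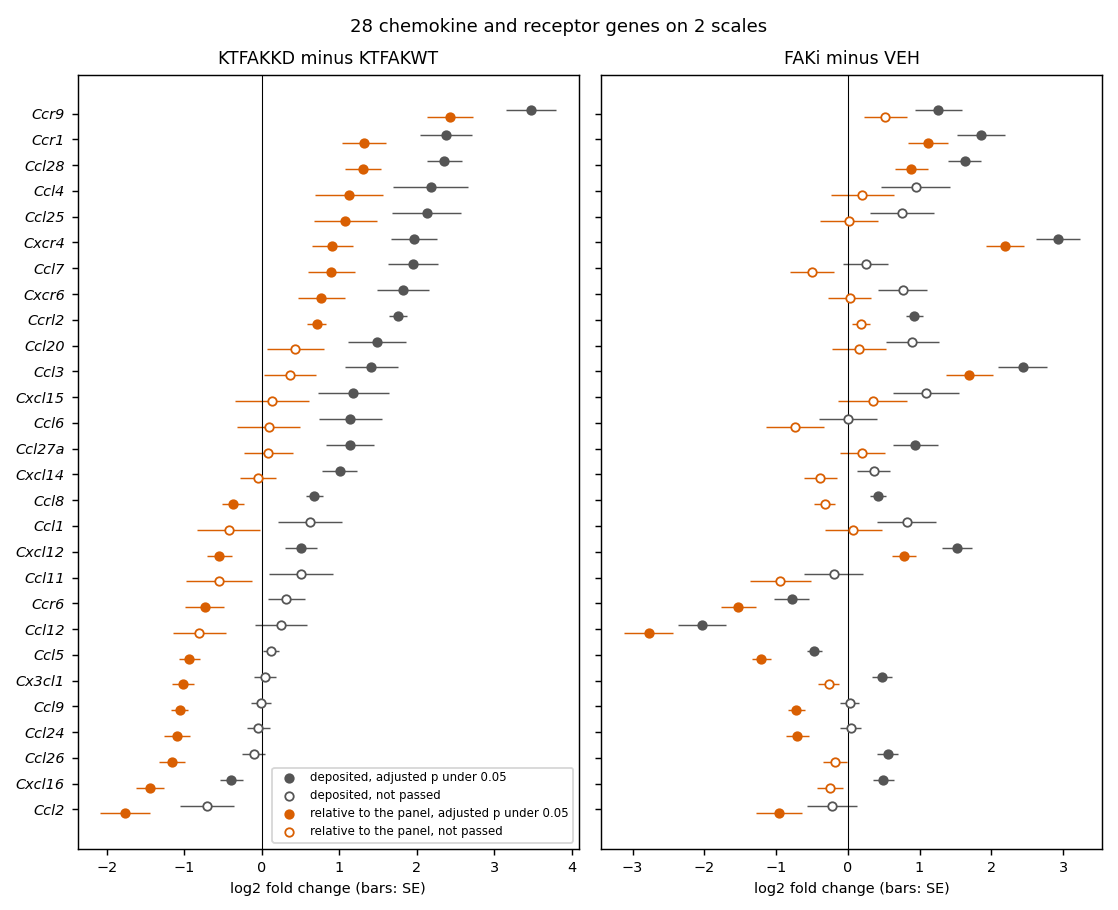
Log2 fold changes of 28 of the 29 genes (x axis) in KTFAKKD minus KTFAKWT (left) and FAKi minus VEH (right), as deposited (grey) and relative to the panel (orange), with moderated standard errors and filled points where the adjusted p was under 0.05. The genes run down the page from the highest to the lowest relative change in KTFAKKD. Ccr9 stands at the top with 3.48 as deposited, and Cxcr4 and Ccl12 mark the ends of the inhibitor comparison at 2.93 and -2.03.

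The inflammatory ligands Ccl3, Ccl4, Ccl5, Ccl6 and Ccl9 did not move as a block. Ccl3, which encodes the macrophage inflammatory protein MIP-1 alpha, had log2 values of 7.23, 7.19 and 7.92 in FAKi samples, against 4.94, 5.20 and 4.88 in VEH samples. Every inhibitor sample lay at least 1.99 log2 units above every vehicle sample. The log2 fold change was 2.44 ± 0.34 (SE; adjusted p = 7.88e-05), with 1.69 ± 0.33 on the relative scale (adjusted p = 0.0011). In KTFAKKD samples Ccl3 had 5.97, 6.73 and 5.27, against 4.21, 4.80 and 4.72 in KTFAKWT samples, a fold change of 1.41 ± 0.34 that passed as deposited (adjusted p = 0.00281) and not relative to the panel (0.36; adjusted p = 0.379). The difference between the 2 comparisons did not pass for Ccl3 (-1.02 ± 0.48; adjusted p = 0.142).

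Ccl4, the gene of the related MIP-1 beta, rose in KTFAKKD samples. Its log2 values were 7.17, 8.52 and 6.72 in KTFAKKD samples, against 5.10, 5.97 and 4.81 in KTFAKWT samples. The groups did not overlap as deposited but did relative to the panel, and KTFAKKD replicate 4 stood above the rest of its group. The fold change was 2.18 ± 0.49 (adjusted p = 0.00178), with 1.13 ± 0.44 on the relative scale (adjusted p = 0.0458). The relative call was lost without KTFAKKD replicate 3 (1.27) or 4 (0.62), KTFAKWT replicate 1 (1.09) or 3 (0.85), and also, at an unchanged fold, without FAKi replicate 4, 5 or 6 or VEH replicate 4. It was lost as well against untreated and vehicle samples together (0.77; adjusted p = 0.105). With the inhibitor Ccl4 had 7.37, 7.12 and 6.73, against 6.73, 6.35 and 5.31 with vehicle, which did not pass (0.95 ± 0.49; adjusted p = 0.116), while inhibitor samples against untreated KTFAKWT samples gave 1.78 (adjusted p = 0.00709). For Ccl4 too, the difference between the 2 comparisons did not pass, at 1.23 ± 0.69 (adjusted p = 0.211).

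Ccl5 (RANTES), a chemoattractant of T cells and monocytes, fell with the inhibitor. It had 11.77, 11.83 and 11.64 in FAKi samples, against 12.11, 12.24 and 12.29 in VEH samples. The change was small beside those of other members, but the spread was narrow and the groups did not overlap: -0.47 ± 0.10 (adjusted p = 0.00225), with -1.21 ± 0.13 on the relative scale (adjusted p = 1.43e-05). In KTFAKKD samples the deposited values were 12.30, 12.07 and 12.49, against 12.20, 12.20 and 12.11 in KTFAKWT samples, with a deposited change of 0.12 (adjusted p = 0.323, not passing) and a relative one of -0.94, which passed (adjusted p = 6.26e-05). The mouse CCR1 ligand Ccl9 behaved like Ccl5 on the relative scale alone, at -1.06 in KTFAKKD minus KTFAKWT and -0.72 in FAKi minus VEH (adjusted p = 6.41e-06 and 2.66e-04), and its deposited changes were -0.01 and 0.02. Ccl6, another mouse CCR1 ligand, passed only as deposited in KTFAKKD (1.14; adjusted p = 0.0235), with KTFAKWT values of 5.63, 5.28 and 6.95 that reach into the KTFAKKD values of 7.32, 7.21 and 6.76, and it did not pass without KTFAKWT replicate 1 (0.98) or 2 (0.81) or KTFAKKD replicate 3 (1.03) or 4 (1.09).

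Ccr1, a receptor for several of these ligands found on monocytes, macrophages and neutrophils, rose in both comparisons. It had 10.66, 10.51 and 10.80 in KTFAKKD samples, against 7.63, 9.04 and 8.19 in KTFAKWT samples. The KTFAKKD samples lay close together, whereas the KTFAKWT samples spread over 1.40 log2 units and still lay below all of them. The fold change was 2.37 ± 0.34 (adjusted p = 6.83e-05), with 1.32 ± 0.28 on the relative scale (adjusted p = 0.00148). With the inhibitor Ccr1 had 10.87, 11.21 and 10.54, against 9.55, 9.01 and 8.48 with vehicle, a change of 1.86 ± 0.34 (adjusted p = 5.23e-04), with a relative change of 1.12 ± 0.28 (adjusted p = 0.00581), which was 1.73 against untreated KTFAKWT samples.

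**Figure D2:**
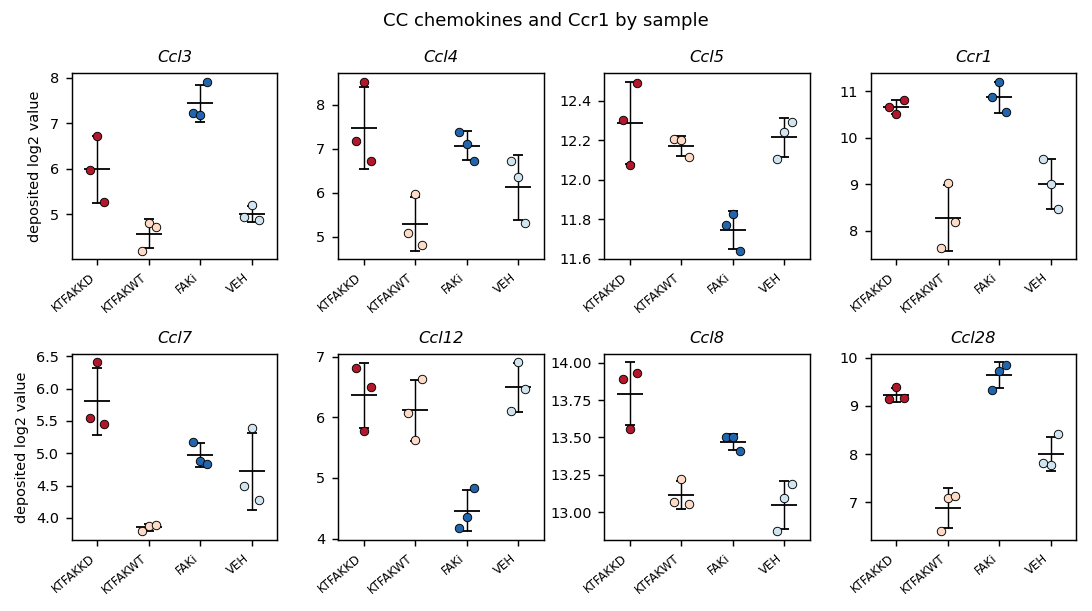
Deposited log2 values (y axis, own scale in each panel) of 7 CC ligands and Ccr1 in each sample, with the mean and SD (n = 3) of each group. Ccl3 and Ccr1 are higher in FAKi than in VEH samples, Ccl12 is lower in FAKi samples at 4.18 to 4.84 against 6.11 to 6.91, and Ccl7 reaches 6.41 in KTFAKKD replicate 4.

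The monocyte chemoattractant genes Ccl2, Ccl7, Ccl12 and Ccl8 stand next to each other on mouse chromosome 11, with Ccl11 between Ccl7 and Ccl12, and moved apart. Ccl12, whose product MCP-5 attracts monocytes through CCR2 in mice, fell with the inhibitor by the widest margin of all 29 members. It had 4.18, 4.36 and 4.84 in FAKi samples, against 6.11, 6.91 and 6.47 in VEH samples. The recovered counts were 16, 18 and 23 with the inhibitor, against 92, 134 and 123 with vehicle. On the deposited scale the groups were at least 1.27 log2 units apart. The fold change was -2.03 ± 0.33 (adjusted p = 2.69e-04), with -2.78 ± 0.35 on the relative scale (adjusted p = 3.72e-05). In KTFAKKD samples Ccl12 had 6.81, 5.78 and 6.50, against 6.07, 5.63 and 6.64 in KTFAKWT samples. These overlapped, and neither scale passed (0.25 and -0.80; adjusted p = 0.512 and 0.0634), although the relative change passed against untreated and vehicle samples together (-0.94; adjusted p = 0.0165). The 2 comparisons differed by 2.28 ± 0.47 (adjusted p = 0.00601), with 1.97 on the relative scale (adjusted p = 0.0113).

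Ccl8, the gene of MCP-2 that follows Ccl12 on the chromosome, had 13.50, 13.50 and 13.41 in FAKi samples, against 12.87, 13.09 and 13.18 in VEH samples. It was higher by 0.42 ± 0.11 as deposited (adjusted p = 0.00732), and its relative change of -0.32 did not pass (adjusted p = 0.0899), whereas against untreated KTFAKWT samples it was -0.50 and passed (adjusted p = 0.011). In KTFAKKD samples it had 13.89, 13.55 and 13.93, against 13.07, 13.22 and 13.05 in KTFAKWT samples, which gave 0.68 ± 0.11 as deposited (adjusted p = 2.43e-04), with -0.37 ± 0.14 on the relative scale (adjusted p = 0.0428). Here the 2 scales passed in opposite directions. The relative call was lost without KTFAKWT replicate 1 (-0.33) or 2 (-0.34), KTFAKKD replicate 4 (-0.24), FAKi replicate 4, 5 or 6 or VEH replicate 4 (each -0.37), and against both control groups together (-0.28; adjusted p = 0.0704).

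The start regions of Ccl12 and Ccl8 are printed because these neighbours went different ways with the inhibitor as deposited. Each covers 250 bases before and 50 after the RefSeq gene start in GRCm38.p6, on the plus strand, at chr11:82101595-82101894 for Ccl12 and chr11:82114935-82115234 for Ccl8.
Ccl12: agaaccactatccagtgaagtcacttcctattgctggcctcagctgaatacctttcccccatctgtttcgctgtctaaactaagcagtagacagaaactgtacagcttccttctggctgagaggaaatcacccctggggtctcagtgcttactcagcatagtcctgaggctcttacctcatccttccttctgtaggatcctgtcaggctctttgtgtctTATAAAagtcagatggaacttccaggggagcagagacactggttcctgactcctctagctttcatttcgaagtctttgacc
Ccl8: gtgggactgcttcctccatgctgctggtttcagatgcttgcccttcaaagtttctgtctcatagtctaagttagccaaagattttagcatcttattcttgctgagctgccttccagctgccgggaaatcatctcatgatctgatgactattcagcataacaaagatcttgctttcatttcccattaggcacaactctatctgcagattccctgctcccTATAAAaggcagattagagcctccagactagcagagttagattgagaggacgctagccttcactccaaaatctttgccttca
Capitals mark the TATA box letters TATAAA, which were searched on both strands after these sequences had been looked at and which 13.6% of all 32851 promoters of the table hold. In a global alignment (match 1, mismatch -1, gap opening -2 and extension -0.5) the 2 regions were 58.0% identical. This was the highest identity of Ccl12 with any other member promoter that was available, and the lowest was 45.8%. The AP-1 letters TGANTCA (7.81% of all promoters), the kappa-B motif (1.63%) and the interferon-response motif (3.44%) were in neither window on either strand. Entries for 20 of the 29 members were found in the RefSeq promoter table by symbol. The neighbours Ccl2, Ccl7 and Ccl11 had none and were not compared with Ccl12.

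Ccl7 (MCP-3), next to Ccl2 in the same run of genes, rose in KTFAKKD samples. It had 5.55, 6.41 and 5.45 there, against 3.79, 3.88 and 3.89 in KTFAKWT samples. All 3 KTFAKKD samples lay at least 1.56 log2 units above the KTFAKWT samples, whose recovered counts were 21, 19 and 18. The change was 1.95 ± 0.32 (adjusted p = 2.03e-04), with 0.90 ± 0.31 on the relative scale (adjusted p = 0.0239). The relative call was lost without KTFAKKD replicate 4 (0.61) or KTFAKWT replicate 2 (0.89) or 3 (0.88), and against both control groups together (0.52; adjusted p = 0.109). With the inhibitor Ccl7 had 5.18, 4.89 and 4.84, within the VEH values of 4.49, 5.40 and 4.28, and did not pass (0.25; adjusted p = 0.52). Against untreated KTFAKWT samples the inhibitor samples were 1.11 higher (adjusted p = 0.00936). The difference between the 2 comparisons passed (1.70 ± 0.45; adjusted p = 0.0181), and vehicle samples themselves lay 0.87 above untreated ones (unadjusted p = 0.0196; adjusted p = 0.258). On the relative scale the difference was 1.39 (adjusted p = 0.0342), and it did not pass without KTFAKWT replicate 1, 2 or 3, FAKi replicate 5 or 6, KTFAKKD replicate 4 or VEH replicate 4 (1.06 to 1.42; adjusted p = 0.0556 to 0.0762).

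The eosinophil-attracting ligands of CCR3 had deposited changes between -0.20 and 0.56 in both comparisons. Of 6 mast cell and eosinophil markers, 5 were higher in each comparison as deposited, where 65.1% and 49.2% of all genes were. Relative to the panel 4 were higher in each, where 23.6% and 17.7% were. The list is mainly one of mast cells (Cma1, Tpsab1, Fcer1a, Ms4a2 and Kit), and its eosinophil gene Prg2 had a mean recovered count of 15.9. The summed level of all 6 was 12.39 to 13.52 in KTFAKKD against 9.38 to 11.20 in KTFAKWT samples. It was 11.78 to 12.09 in FAKi against 7.76 to 10.04 in VEH samples. Cma1 had the highest mean count of the list, 2350.75, and the part of these cells in the ligand values was not tested. Ccl26, known in human as eotaxin-3, had 7.75, 7.70 and 7.77 in FAKi samples, against 7.32, 6.87 and 7.35 in VEH samples. The inhibitor samples were nearly equal to each other and all above the vehicle samples, by 0.56 ± 0.15 (adjusted p = 0.00583), but relative to the panel the change was -0.18 (adjusted p = 0.403). In KTFAKKD samples it had 7.12, 6.98 and 7.20, against 7.19, 7.05 and 7.37 in KTFAKWT samples, a change of -0.10 as deposited (adjusted p = 0.525), with a relative change of -1.16 (adjusted p = 7.19e-05). Ccl24 (eotaxin-2) had deposited changes of -0.04 in KTFAKKD and 0.04 with the inhibitor, and passed as lower relative to the panel in both (-1.09 and -0.70; adjusted p = 9.89e-05 and 0.00369). Ccl11 (eotaxin-1) passed in neither on either scale, with 0.50 and -0.20 as deposited.

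Among ligands of epithelia and mucosa, Ccl28, which attracts lymphocytes through CCR10, rose in both comparisons. It had 9.14, 9.40 and 9.16 in KTFAKKD samples, against 6.40, 7.10 and 7.13 in KTFAKWT samples. Every KTFAKKD sample lay at least 2.01 log2 units above every KTFAKWT sample, and the change was 2.35 ± 0.23 (adjusted p = 3.58e-06), with 1.30 ± 0.23 on the relative scale (adjusted p = 3.30e-04). With the inhibitor it had 9.34, 9.71 and 9.85, against 7.82, 7.77 and 8.42 with vehicle, a change of 1.63 ± 0.23 (adjusted p = 8.19e-05), with a relative change of 0.89 ± 0.23 (adjusted p = 0.00664). The choice of control mattered for its size, since the vehicle samples lay 1.13 above the untreated ones without overlap (adjusted p = 0.101). Against untreated KTFAKWT samples the inhibitor change was 2.76 (1.90 relative to the panel), and against both control groups together the relative KTFAKKD change was 0.80. All 5 epithelial and tumour markers were lower in KTFAKKD samples on both scales, where 9.47% of all genes were. With the inhibitor 3 of them were lower and 2 higher as deposited, where 10.5% and 49.2% of all genes were. The part of these markers in the Ccl28 values was not tested.

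The receptor Ccr9, which guides T cells and plasmacytoid dendritic cells to the gut, had the highest change of all members in KTFAKKD samples. It had 10.27, 10.54 and 9.03 there, against 6.26, 6.44 and 6.71 in KTFAKWT samples. Recovered counts were 869, 896 and 404 in KTFAKKD, against 116, 112 and 127 in KTFAKWT samples, and KTFAKKD replicate 5 was the lowest of its group. The change was 3.48 ± 0.32 (adjusted p = 2.83e-06), with 2.43 ± 0.30 on the relative scale (adjusted p = 1.91e-05). With the inhibitor it had 8.78, 9.06 and 8.84, against 7.94, 7.30 and 7.65 with vehicle, which passed as deposited (1.26 ± 0.32; adjusted p = 0.00528) and not relative to the panel (0.52; adjusted p = 0.18). Against untreated KTFAKWT samples the inhibitor change was 2.42 (adjusted p = 4.85e-05), with 1.57 on the relative scale (adjusted p = 7.67e-04). The difference between the 2 comparisons was 2.21 ± 0.46 (adjusted p = 0.00601), with 1.90 on the relative scale (adjusted p = 0.00689).

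Its ligand Ccl25 was counted far less often, with 17, 26 and 15 molecules in KTFAKKD samples, against 8, 8 and 9 in KTFAKWT samples. The groups did not overlap, and the change was 2.13 ± 0.44 (adjusted p = 0.00113), with 1.08 ± 0.41 on the relative scale (adjusted p = 0.0378). That relative call was lost without KTFAKKD replicate 3 (1.16) or 4 (0.76) or any KTFAKWT sample (1.02, 1.05 and 1.16), and against both control groups together (0.75; adjusted p = 0.086). With the inhibitor the counts were 18, 17 and 12, against 20, 18 and 7 with vehicle, and did not pass (0.76; adjusted p = 0.161). Against untreated KTFAKWT samples the inhibitor change was 1.53 (adjusted p = 0.00981).

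Ccr6, the receptor of B cells and of helper T cells that produce interleukin 17, fell with the inhibitor. It had 7.35, 7.67 and 7.003 in FAKi samples, against 7.76, 7.90 and 8.72 in VEH samples. The nearest samples of the groups were 0.0910 log2 units apart, and VEH replicate 9 stood above the rest. The change was -0.78 ± 0.24 (adjusted p = 0.0138), with -1.52 ± 0.25 on the relative scale (adjusted p = 3.02e-04). The deposited change was lost without FAKi replicate 6 (-0.61), was -0.49 without VEH replicate 9 and -0.01 against untreated KTFAKWT samples (adjusted p = 0.966), where the relative change was -0.87 (adjusted p = 0.0104). Among B-cell markers, 7 of 8 were higher with the inhibitor as deposited, where 49.2% of all genes were. After the shift to the same median gene, 5 of them still passed as higher, where 17.7% of all genes did. Another 1 passed as lower, where 28.8% did, and 2 did not pass. The part of B cells in the Ccr6 values was not tested. In KTFAKKD samples Ccr6 had 7.50, 7.87 and 7.63, against 7.42, 7.36 and 7.29 in KTFAKWT samples, a change of 0.31 as deposited (adjusted p = 0.246), with a relative change of -0.74 (adjusted p = 0.0225), which was lost without KTFAKWT replicate 1 (-0.64) or KTFAKKD replicate 3 (-0.66). Its ligand Ccl20 had counts of 14, 23 and 17 in KTFAKKD, against 15, 15 and 8 in KTFAKWT samples, and 18, 25 and 29 in FAKi, against 20, 24 and 14 in VEH samples. Only the first of these passed, as deposited (1.49 ± 0.37; adjusted p = 0.0037), with 0.44 relative to the panel (adjusted p = 0.342), and the inhibitor samples were 1.60 above untreated KTFAKWT samples (adjusted p = 0.00277).

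The pair of Cxcl12, a homing signal made by stromal and mesothelial cells, and its receptor Cxcr4 rose together with the inhibitor. Cxcr4 had 8.91, 9.56 and 8.95 in FAKi samples, against 6.37, 6.23 and 6.03 in VEH samples. With at least 2.54 log2 units between the groups, the change was 2.93 ± 0.30 (adjusted p = 1.28e-05), with 2.19 ± 0.26 on the relative scale (adjusted p = 2.63e-05). Cxcl12 had 8.94, 8.94 and 8.64 in FAKi samples, against 7.76, 7.22 and 6.97 in VEH samples. Its change was 1.52 ± 0.21 (adjusted p = 7.07e-05), with 0.78 ± 0.17 on the relative scale (adjusted p = 0.00184), and both calls held when any 1 sample was left out.

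In KTFAKKD samples the receptor rose and the ligand did not move in one direction. Cxcr4 had 8.43, 8.44 and 8.08, against 5.81, 7.16 and 6.10 in KTFAKWT samples, a change of 1.96 ± 0.30 (adjusted p = 1.28e-04), with a relative change of 0.91 ± 0.26 (adjusted p = 0.00999). KTFAKWT replicate 2 was the highest of its group. The deposited values did not overlap, but the relative ones did, with KTFAKWT replicate 2 at 7.62 above KTFAKKD replicate 5 at 7.56. Cxcl12 had 7.56, 7.95 and 7.78, against 6.99, 7.26 and 7.53 in KTFAKWT samples, so that it passed as higher by 0.51 ± 0.21 as deposited (adjusted p = 0.0433), and as lower on the relative scale, at -0.55 ± 0.17 (adjusted p = 0.0131). The deposited call was lost without KTFAKWT replicate 1 (0.37) or 2 (0.51), KTFAKKD replicate 4 (0.41) or 5 (0.50), or FAKi replicate 4 or 5 or VEH replicate 4, and the relative one without KTFAKWT replicate 3 or KTFAKKD replicate 3 (-0.45 each). The 2 comparisons differed by -1.02 ± 0.29 for Cxcl12 (adjusted p = 0.0256), with -1.33 on the relative scale (adjusted p = 0.00214), and -0.97 for Cxcr4, which passed only relative to the panel (-1.28; adjusted p = 0.0249).

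Cxcl16, a transmembrane chemokine of macrophages and epithelial cells, fell in KTFAKKD samples. It had 9.64, 10.07 and 9.86 there, against 10.38, 10.19 and 10.17 in KTFAKWT samples. The groups came within 0.0995 log2 units of each other without overlapping, and the change was -0.39 ± 0.14 (adjusted p = 0.0268), with -1.44 ± 0.18 on the relative scale (adjusted p = 2.49e-05). The deposited call was lost without KTFAKWT replicate 1 (-0.32) or KTFAKKD replicate 3 (-0.28). With the inhibitor the direction was the other one as deposited, at 10.58, 10.61 and 11.04 in FAKi samples, against 10.28, 10.10 and 10.36 in VEH samples (0.49 ± 0.14; adjusted p = 0.0105), with -0.25 on the relative scale (adjusted p = 0.296). The difference between the 2 comparisons was -0.89 ± 0.20 (adjusted p = 0.00906), with -1.20 on the relative scale (adjusted p = 0.00596). Of the 5 epithelial and tumour markers, all were lower in KTFAKKD samples on both scales, where 9.47% of all genes were. With the inhibitor 3 were lower and 2 higher as deposited, where 10.5% and 49.2% of all genes were. The part of these markers in the Cxcl16 values was not tested.

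The receptor for CXCL16, Cxcr6, which marks tissue-resident T and NK cells, rose where its ligand fell. It had counts of 28, 47 and 35 in KTFAKKD samples, against 20, 21 and 18 in KTFAKWT samples. The change was 1.82 ± 0.34 (adjusted p = 5.10e-04), with 0.77 ± 0.30 on the relative scale (adjusted p = 0.0425). The relative call was lost without KTFAKKD replicate 4 (0.49) or 5 (0.86), any of the KTFAKWT samples (0.75, 0.82 and 0.74), FAKi replicate 4 or 6 or VEH replicate 3, and against both control groups together (0.62; adjusted p = 0.0557). With the inhibitor Cxcr6 had counts of 25, 42 and 22, against 31, 28 and 18 with vehicle, and did not pass (0.77; adjusted p = 0.0722; on the relative scale 0.03). Against untreated KTFAKWT samples the deposited inhibitor change was 1.18 (adjusted p = 0.00948).

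**Figure D3:**
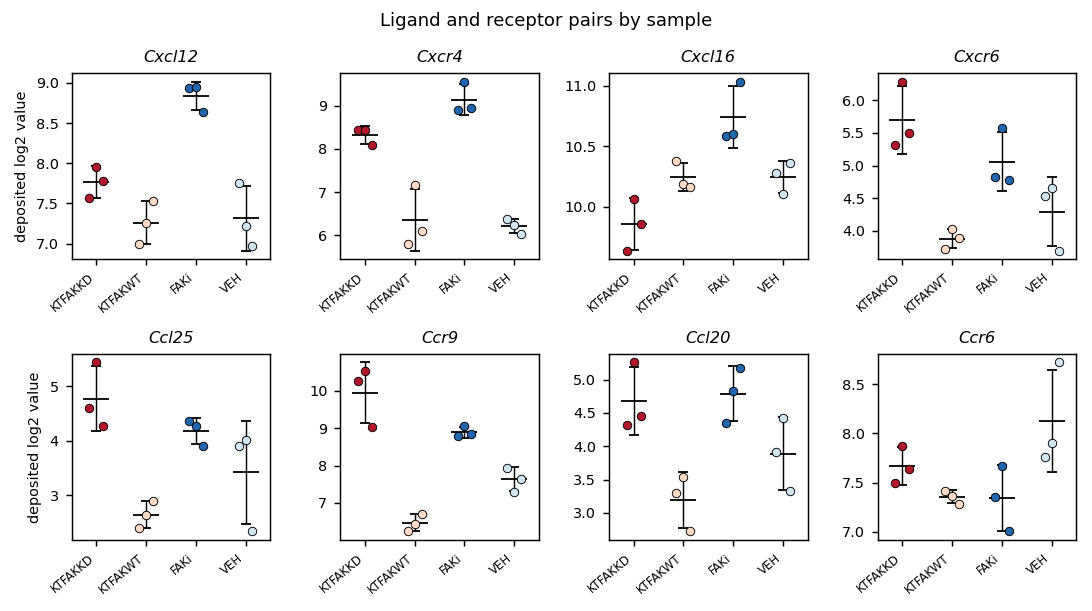
Deposited log2 values (y axis, own scale in each panel) of 4 ligands beside their receptors in each sample, with the mean and SD (n = 3) of each group. Cxcl12 and Cxcr4 are both highest in FAKi samples, Ccr9 is highest in KTFAKKD samples at 9.03 to 10.54, and Cxcl16 is lowest in KTFAKKD samples while Cxcr6 is lowest in KTFAKWT samples on average.

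Ccrl2, an atypical receptor that binds the attractant chemerin without signalling, had the smallest adjusted p of all members in KTFAKKD samples as deposited. It had 11.60, 11.64 and 11.19 there, against 9.60, 9.70 and 9.85 in KTFAKWT samples. The change was 1.76 ± 0.12 (adjusted p = 3.11e-07), with 0.71 ± 0.12 on the relative scale (adjusted p = 2.82e-04). With the inhibitor it had 10.72, 10.76 and 10.69, against 9.75, 9.78 and 9.86 with vehicle, a change of 0.93 ± 0.12 as deposited (adjusted p = 4.29e-05), with a relative change of 0.19 (adjusted p = 0.242). The widest spread within a group was 0.45 log2 units, among KTFAKKD samples. The 2 comparisons differed by 0.83 ± 0.16 (adjusted p = 0.00484), with 0.52 on the relative scale (adjusted p = 0.0424). Leaving out 1 sample at a time ended the relative call for 10 of the 12 samples, with differences of 0.44 to 0.56 (adjusted p = 0.0572 to 0.101), and KTFAKKD replicate 5 and VEH replicate 3 were the exceptions.

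Of the other CXC and CX3C ligands, Cxcl14, an epithelial chemokine, passed in KTFAKKD samples as deposited (1.004 ± 0.229; adjusted p = 0.00209) with -0.05 relative to the panel. Relative to the panel the inhibitor samples were -0.65 against untreated KTFAKWT samples (adjusted p = 0.033) for Cxcl14. Cx3cl1, the membrane-bound fractalkine, had 5.90, 5.73 and 5.62 in KTFAKKD samples, against 5.67, 5.68 and 5.79 in KTFAKWT samples, and was lower only relative to the panel (-1.01; adjusted p = 5.98e-05). Under the inhibitor it had 6.29, 6.38 and 6.22, against 5.91, 5.77 and 5.79 with vehicle, and was higher as deposited (0.47 ± 0.14; adjusted p = 0.0113) and not relative to the panel (-0.27; adjusted p = 0.151).

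The 6 members with a mean recovered count under 20 were Ccl1, Ccl2, Ccl20, Ccl25, Ccl27a and Cxcl15. Ccl2 (MCP-1), the classical monocyte attractant, had counts of 11, 8 and 9 in KTFAKKD samples, against 24, 26 and 40 in KTFAKWT samples. It was lower by the widest margin of any member relative to the panel (-1.76 ± 0.32; adjusted p = 4.71e-04), and its deposited change of -0.71 did not pass (adjusted p = 0.085). With the inhibitor the counts were 12, 18 and 10, against 31, 13 and 28 with vehicle (-0.22; adjusted p = 0.614; on the relative scale -0.96; adjusted p = 0.0278), and the relative call was lost without FAKi replicate 4 (-0.88) or 6 (-0.87) or VEH replicate 3 (-0.80) or 9 (-0.81). Ccl27a, a skin chemokine with near-identical copies in the mouse genome, had counts of 14, 13 and 16 in KTFAKKD samples, against 9, 13 and 17 in KTFAKWT samples. With the inhibitor its counts were 17, 15 and 22, against 15, 11 and 16 with vehicle. The counts overlapped in both comparisons. Ccl27a still passed as deposited in KTFAKKD (1.14, adjusted p = 0.00634) and with the inhibitor (0.94, adjusted p = 0.0217). The inhibitor call was lost without FAKi replicate 6 (0.74) or VEH replicate 4 (0.87). Relative to the panel neither change passed (0.08 and 0.20). Cxcl15 had counts between 4 and 12 in all samples and passed once, as deposited in KTFAKKD (1.18; adjusted p = 0.0358), which was lost without KTFAKWT replicate 1 (0.82) or 2 (1.23) or KTFAKKD replicate 4 (1.05) or 5 (0.91). Ccl1, a ligand of CCR8, had counts of 4 to 15 in KTFAKKD, 10 to 14 in KTFAKWT, 15 to 18 in FAKi and 11 to 21 in VEH samples. It passed in neither comparison. Against untreated KTFAKWT samples the inhibitor samples were higher as deposited for Ccl1 (1.17, adjusted p = 0.0278) and Cxcl15 (1.17, adjusted p = 0.0423).

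The test of the difference between the 2 FAK comparisons passed for 9 of the 29 members as deposited, 6 with a higher change in KTFAKKD and 3 with a higher change with the inhibitor, against 16.3% and 7.6% of all genes. Relative to the panel 4 and 5 passed, against 11.2% and 14.8%. Ccl12, Ccr9, Ccl7 and Ccrl2 passed on both scales on the KTFAKKD side, and Cxcl12, Cxcl16 and Ccl26 on both scales on the inhibitor side. With 1 sample left out at a time, the relative call was lost for 10 samples in Ccrl2 and 7 in Ccl7, and the deposited call for 8 in Ccl26 and 5 in Cxcl12. Ccl5 (0.58) and Ccr6 (1.10) passed as deposited only, and relative to the panel they had 0.27 and 0.79 (adjusted p = 0.34 and 0.125). Cxcr4 and Cx3cl1 passed only relative to the panel.

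**Figure D4:**
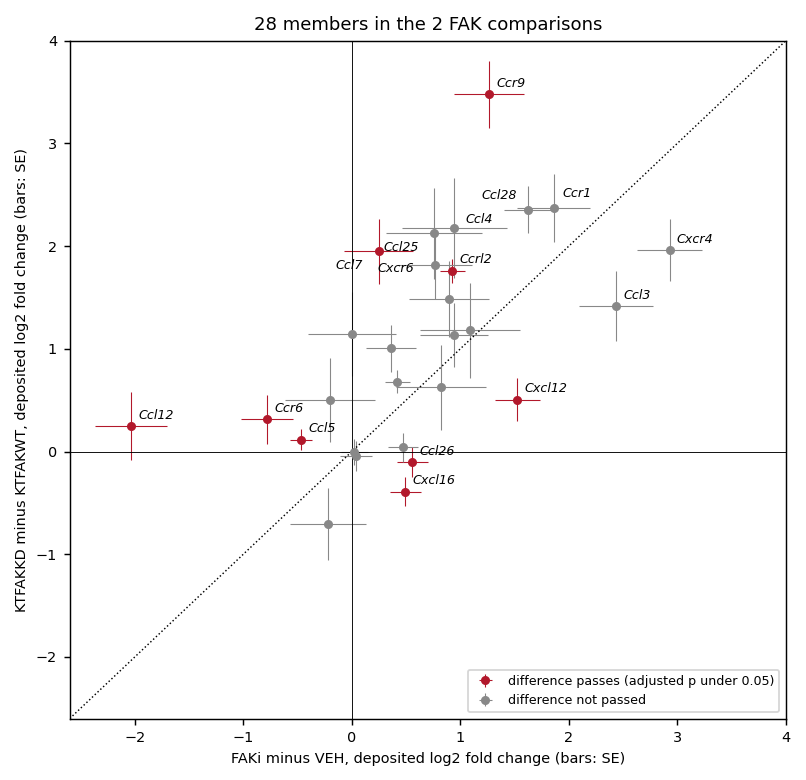
Deposited log2 fold changes of 28 of the 29 genes in KTFAKKD minus KTFAKWT (y axis) against FAKi minus VEH (x axis), with standard errors; the dotted line marks equal change. Red points are the 9 genes whose difference between the comparisons passed, among them Ccr9 at 3.48 and 1.26 above the line and Cxcl12 at 0.51 and 1.52 below it.

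Between the control groups no gene passed in VEH minus KTFAKWT (limma, 0% of 750 genes on either scale, with 12.4% and 13.2% at an unadjusted p under 0.05 as deposited and relative to the panel). Of the members, 4 as deposited and 5 relative to the panel had an unadjusted p under 0.05. The deposited 4 were Ccl28 (1.13), Ccr9 (1.16), Ccl7 (0.87) and Ccr6 (0.77), each with vehicle samples above untreated ones without overlap. Ccl3 also did not overlap (4.94, 5.20 and 4.88 in VEH, against 4.21, 4.80 and 4.72 in KTFAKWT samples), which makes 5 members, where 12% of all genes were higher without overlap.

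Several members are neighbours in the genome. Ccr9, Cxcr6 and Ccr1 lie within a run of 5 protein-coding genes on chromosome 9, by the order of genes in RefSeq, and Ccrl2 lies on the same chromosome with 112 genes between it and Ccr9. These 4 were higher in KTFAKKD samples on both scales, by 1.76 to 3.48 as deposited, and 17 of the 50 panel genes on chromosome 9 were higher on both. The ligands of chromosome 11 form a run of 6 neighbours (Ccl2, Ccl7, Ccl11, Ccl12, Ccl8 and Ccl1) with deposited changes from -0.71 to 1.95 in KTFAKKD and from -2.03 to 0.82 with the inhibitor, and a run of 5 (Ccl5, Ccl9, Ccl6, Ccl3 and Ccl4) with changes from -0.01 to 2.18 and from -0.47 to 2.44. No test of position was made.

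The other 27 measured genes of the chemokine system gave 16 higher and 1 lower in KTFAKKD samples as deposited, against 65.1% and 9.47% of all genes. On the relative scale they gave 7 and 5, against 23.6% and 34.5%. With the inhibitor they gave 8 higher and 3 lower as deposited, against 49.2% and 10.5%. On the relative scale these were 4 and 7, against 17.7% and 28.8%. Their median deposited change was 1.39 in KTFAKKD, against 1.14 for the 29 members, and 0.30 with the inhibitor, against 0.76 for the members. Ccr2, the receptor for Ccl2, Ccl7 and Ccl12 with a mean recovered count of 14.7, had a deposited change of 4.38 in KTFAKKD (adjusted p = 0.00197) and 0.30 with the inhibitor (adjusted p = 0.817).

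Within the KTFAKKD group, replicate 4 had the highest deposited value of the 3 samples for 18 of the 29 members, where it had the highest for 48.7% of all genes, and relative to the panel for 16, where the share was 42.9%. This sample also had the highest factor, 1.66. The members whose relative calls in KTFAKKD were lost without it were Ccl4, Ccl7, Ccl8, Ccl25 and Cxcr6.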

How the data were processed

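NanoString values of 12 ascites samples were taken from the deposited table of 750 genes. The values are log2 values as deposited by the authors, and for their software and normalization the entry is: not given in the sources used here. Dividing out 1 factor per sample gave whole counts within 0.01 for every value. Those counts were used to describe depth and were not tested.

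The deposited log2 values were fitted with limma 3.58.1 in R 4.3.3, with 4 group means over all 12 samples, eBayes with trend and two-sided tests with Benjamini-Hochberg adjustment over all 750 genes at a threshold of 0.05. The same fit was run relative to the panel. No filter on low values was used. Standard errors are limma's moderated ones. Replicates of a group differed by more than counting noise (chi-square per degree of freedom 8.35 to 59.6 over 12 pairs). Figures were drawn with matplotlib 3.10.9.

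The members and lists were chosen with earlier results of these data known. Members were given with values in every sample where they passed on both scales in the same direction in either FAK comparison or in the difference of the 2, together with their receptor or ligand partners, and the others by counts and ranges; Cx3cl1, Ccl6 and Ccl8 were given more fully after their values had been seen. Alternatives were other scalings, filters on low genes, other variance models, a threshold of 0.1, other control groups and leaving out each sample. The targeted gene, Ptk2, was not used here. Promoter sequences came from RefSeq (GRCm38.p6). The fit was checked on simulated data that held no shift of the whole panel between groups, so it does not bear on the choice of scale. For KTFAKKD minus KTFAKWT and FAKi minus VEH it found 52% and 36% of changes of 0.5 log2 units. Of changes of 1 log2 unit it found 90% and 86%, and 6.58% and 5.43% of the calls were false. The values of 1 member are not reported here, although it is included in the counts and medians.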

Additional observations from a re-analysis of the deposited data

Results flagged for a closer look

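For 9 members the change in KTFAKKD minus KTFAKWT differed from that in FAKi minus VEH by limma's test of the difference itself, fitted over all 750 genes on the deposited log2 values. The difference was 2.28 for Ccl12, 2.21 for Ccr9, 1.70 for Ccl7, 1.10 for Ccr6, 0.83 for Ccrl2 and 0.58 for Ccl5, each with the more positive change in KTFAKKD. It was -1.02 for Cxcl12, -0.89 for Cxcl16 and -0.66 for Ccl26, each with the more positive change under the inhibitor. Relative to the panel Ccr6 and Ccl5 did not pass. Vehicle samples lay above untreated KTFAKWT samples without overlap for Ccr9, Ccl7 and Ccr6, by 1.16, 0.87 and 0.77, none of which passed after adjustment, and the part of this offset in the difference was not tested.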

How the results depend on the processing

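Scaling moved the split of higher and lower calls. As deposited 18 members were higher and 1 lower in KTFAKKD minus KTFAKWT. The split was 9 and 10 with scaling to the panel median, 8 and 10 with quantile normalization and 9 and 9 with scaling to total recovered counts. In FAKi minus VEH the deposited 13 and 3 became 5 and 6, 6 and 5, and 6 and 5. In the difference of both comparisons 6 and 3 became 4 and 5, 4 and 6, and 3 and 6. With scaling to the panel median, 9 KTFAKKD minus KTFAKWT changes took a negative sign, and the 6 that passed as deposited or under that scaling were Ccl5 -0.94, Ccl8 -0.37, Ccr6 -0.74, Cx3cl1 -1.01, Cxcl12 -0.55 and Cxcl14 -0.047. With quantile normalization, 11 KTFAKKD minus KTFAKWT changes took a negative sign, and the 8 that passed in either fit were Ccl12 -1.05, Ccl5 -0.58, Ccl6 -0.039, Ccl8 -0.45, Cx3cl1 -1.24, Cxcl12 -0.46, Cxcl14 -0.13 and Cxcl15 -0.28. With scaling to total counts, 9 KTFAKKD minus KTFAKWT changes took a negative sign, and the 6 that passed in either fit were Ccl5 -0.90, Ccl8 -0.34, Ccr6 -0.70, Cx3cl1 -0.98, Cxcl12 -0.51 and Cxcl14 -0.012. With scaling to the panel median, 9 FAKi minus VEH changes took a negative sign, and the 6 that passed in either fit were Ccl24 -0.70, Ccl26 -0.18, Ccl8 -0.32, Ccl9 -0.72, Cx3cl1 -0.27 and Cxcl16 -0.25. With quantile normalization, 8 FAKi minus VEH changes took a negative sign, and the 5 that passed in either fit were Ccl24 -0.72, Ccl26 -0.085, Ccl8 -0.18, Ccl9 -0.42 and Cx3cl1 -0.28. With scaling to total counts, 9 FAKi minus VEH changes took a negative sign, and the 6 that passed in either fit were Ccl24 -0.58, Ccl26 -0.057, Ccl8 -0.20, Ccl9 -0.59, Cx3cl1 -0.14 and Cxcl16 -0.12. Leaving out 1 sample at a time gave 16 to 20 members called in KTFAKKD minus KTFAKWT (14 to 19 relative to the panel), 14 to 19 in FAKi minus VEH (10 to 12), 0 to 1 in VEH minus KTFAKWT (0 to 1 relative to the panel) and 6 to 11 in the difference (6 to 10). In the difference, with 1 sample left out at a time, the deposited call was lost for 8 samples in Ccl26, 6 in Ccr6 and 5 in Cxcl12, and the relative call for 10 in Ccrl2, 7 in Ccl7 and 2 in Cxcr4. The fits relative to the panel with 1 sample left out or with other controls were chosen after the data had been seen. No paired analysis was possible because the groups of each comparison share fewer than 2 replicate numbers. An exact permutation test of 3 samples against 3 has 0.1 as its smallest two-sided p, so calls rest on the spread pooled over groups. Of the 29 members 6 had mean counts under 20, where 1 molecule moves a value visibly.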
